A study of Rattus norvegicus with 6 samples.

Results

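Collagen chains are the subunits of the collagens, and they were taken here as every protein-coding gene in the count table whose symbol is Col, a number, the letter a and a number. The rule found 42 chains among 34156 genes, of which 22250 were protein coding. By class, 10 were fibrillar chains, 6 basement membrane chains, 9 FACIT chains (fibril-associated collagens with interrupted triple helices) and 17 other chains. Of the 42, 23 had at least 10 counts in at least 3 libraries and were tested, together with 13614 genes in all. The rest were too low to test, and 3 of them (Col9a1, Col23a1 and Col26a1) had no count in any library.

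The libraries came from rat RA-FLS, the fibroblast-like synoviocytes of the joint lining, labelled wild type and rheumatoid arthritis and expanded to the fourth passage. All cells received 10 ng/mL TNF-α, an inflammatory cytokine. The TNF-α group (n = 3) received nothing else, and the TNF-α+EMO group (n = 3) also received 80 μmol/L emodin (EMO), an anthraquinone found in rhubarb. The labels give the time as day 5, whereas the study's methods give 24 h of incubation. No untreated library was analysed here, so that every difference below is between TNF-α with and without EMO. The cells are described as a purchased culture, and the methods call the 3 libraries of a group biological replicates. Neither the methods nor the labels say whether they came from separate animals or cultures, and the p-values measure only the spread between these libraries.

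Each collagen molecule is built from α chains that wind around each other into a helix. Fibrillar chains (types I, II, III, V, XI, XXIV and XXVII) form the fibrils that carry tension in tendon, skin, bone, cartilage and the synovial sublining. Type IV chains form the sheet-like network of basement membranes, FACIT chains decorate the surface of fibrils, and the remaining types build beaded filaments (VI), anchoring fibrils (VII), hexagonal lattices (VIII and X), membrane-spanning collagens and multiplexins (XV and XVIII). Fibroblasts are the main source of fibrillar and type VI collagen in connective tissue, and synovial fibroblasts both lay down and degrade the joint's collagen matrix.

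Of the 9 fibroblast markers examined, 7 were tested. All but Vim, which encodes vimentin, were called lower with EMO (Vim log2 fold change −0.92, not called), beside 27.8% of all tested genes. That share stands behind the calls of the other marker lists as well. The summed level of the 9 fibroblast markers was 102594 to 105739 normalized counts with TNF-α and 31912 to 34540 with EMO. Thy1 and Pdpn, which define synovial fibroblasts in tissue, had at most 7 counts in any library. The lining markers Prg4, Clic5 and Htra4 summed to no more than 14.7 normalized counts in any library. Among markers of other cells, 2 of 6 leukocyte genes were tested and the list summed to 1200 to 1301 with TNF-α and 734.4 to 803.7 with EMO, the endothelial genes stayed at or below 23.5 in sum, and the epithelial list was carried by Krt8, with sums of 9942 to 10807 and 1968 to 2304. The mural list (Acta2 and Myh11 tested, both lower) summed to 777.4 to 863.0 with TNF-α and 11.2 to 16.5 with EMO. The chondrocyte list (Sox9 tested, lower) summed to 455.9 to 554.2 and 4.09 to 9.28. Epcam, Krt5 and Acan were at 0 in every library. The tested fibroblast, mural and chondrocyte markers and Krt8 were lower with EMO, as most tested chains were. Of the 2 tested leukocyte genes, Cd14 was lower (log2 fold change −1.10), while Cd68 went up and was not called (0.75). The part of these markers in the results on collagen was not tested. In a bulk library, fewer cells of a type and less RNA per cell cannot be told apart.

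Promoter sequence was looked up for the chains, and 33 of the 42 chains, 19 of them tested, had a window in the RefSeq promoter table (rat GRCr8). The windows below hold the 250 bases before the annotated start, except for Col4a1 and Col4a2. These neighbours on chromosome 16 are transcribed away from each other from starts with only 76 bases between them, so that 1 stretch serves both genes. They are shown with the chain of the largest fold change (Col8a1), the called fibrillar chain of high level with the smallest one (Col5a2), the chain that was not called (Col5a3) and the higher chain with the most counts (Col7a1). Capitals mark matches, on either strand, to a GC box (GGGCGG) or a CCAAT box (CCAAT), and all are written in the direction of the first named gene.
Col4a1 and Col4a2, chr16:84885521-84885596, plus strand: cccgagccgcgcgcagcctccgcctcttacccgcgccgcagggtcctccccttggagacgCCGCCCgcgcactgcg
Col8a1, chr11:56246532-56246781, plus strand: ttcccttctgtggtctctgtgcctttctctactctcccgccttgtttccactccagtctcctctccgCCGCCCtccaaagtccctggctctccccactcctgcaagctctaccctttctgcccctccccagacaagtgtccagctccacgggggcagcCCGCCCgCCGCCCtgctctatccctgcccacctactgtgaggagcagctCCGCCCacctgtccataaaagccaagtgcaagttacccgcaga
Col5a2, chr9:55090152-55090401, minus strand: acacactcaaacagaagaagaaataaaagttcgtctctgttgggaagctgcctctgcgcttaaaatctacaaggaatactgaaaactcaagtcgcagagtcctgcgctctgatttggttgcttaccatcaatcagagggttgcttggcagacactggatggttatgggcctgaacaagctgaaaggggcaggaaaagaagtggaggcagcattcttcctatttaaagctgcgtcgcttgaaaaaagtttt
Col5a3, chr8:27625949-27626198, minus strand: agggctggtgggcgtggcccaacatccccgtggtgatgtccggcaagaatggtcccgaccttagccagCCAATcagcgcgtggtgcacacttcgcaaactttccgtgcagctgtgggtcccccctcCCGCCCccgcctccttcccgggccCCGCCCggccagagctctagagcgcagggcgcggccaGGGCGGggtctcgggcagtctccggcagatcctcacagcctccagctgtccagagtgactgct
Col7a1, chr8:118483114-118483363, plus strand: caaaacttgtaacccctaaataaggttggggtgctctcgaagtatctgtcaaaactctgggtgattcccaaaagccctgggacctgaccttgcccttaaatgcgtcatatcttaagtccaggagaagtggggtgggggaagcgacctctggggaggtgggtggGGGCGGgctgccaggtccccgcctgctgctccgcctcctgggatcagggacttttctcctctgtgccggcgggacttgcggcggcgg

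The stretch between Col4a1 and Col4a2 was 78.9% G or C and the Col5a3 window 68.8%, against 44.8% for Col5a2, which held neither motif. The Col8a1 window held 4 GC boxes, that of Col5a3 held 3 and 1 CCAAT box, and that of Col7a1 held 1 GC box. Over all 33469 windows of this length, 30.5% held a GC box, 34.0% a CCAAT box, 12.9% a TATA box (TATAAA) and 4.05% an AP-1 site (TGACTCA). None of these motifs contains another. Of the 13 lower chains with a window, 10 held a GC box, 2 a CCAAT box, 1 an AP-1 site and 0 a TATA box. Col4a1 and Col4a2 were counted as separate windows, so that the GC box in the stretch they share entered for both. Of the 5 higher chains, 3 held a GC box, 3 a CCAAT box, and 0 a TATA box or an AP-1 site. A match describes the letters of the window and is no evidence of binding. Other pairs of type IV genes also lie head to head in GRCr8, with 412 bases between the starts of Col4a3 and Col4a4 on chromosome 9 and 1414 between those of Col4a5 and Col4a6 on chromosome X. In Rnor_6.0, to which the reads were aligned, the annotated starts of Col4a5 and Col4a6 (112769645 and 112473822) lie much farther apart.

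Most tested collagen chains fell with EMO. A gene was called when its adjusted p was below 0.05 and its log2 fold change beyond 1 in size. By this rule 17 of the 23 tested chains (73.9%) were lower and 5 were higher. Of all tested genes, 27.8% were called lower and 19.5% higher, and these shares also stand behind the counts by class below. The low chains Col4a4, Col4a6, Col8a2, Col6a4, Col6a5, Col7a1 and Col20a1 passed the count filter only through the group in which they were high. That favours a call, and all of the higher chains but Col11a2 are among them. The tested chains had a median log2 fold change of −4.19, against −0.01 for all tested genes, and ranged from −10.40 (Col8a1) to 4.82 (Col7a1), leaving aside Col6a5, which had no count with TNF-α. The groups did not overlap in 17 chains that were lower and 5 that were higher, beside 42.5% and 40.3% of all tested genes. All 23 chains had an adjusted p below 0.05, a mark that 80.9% of all tested genes also passed, so that passing it says little about the chains themselves.

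**Figure D1:**
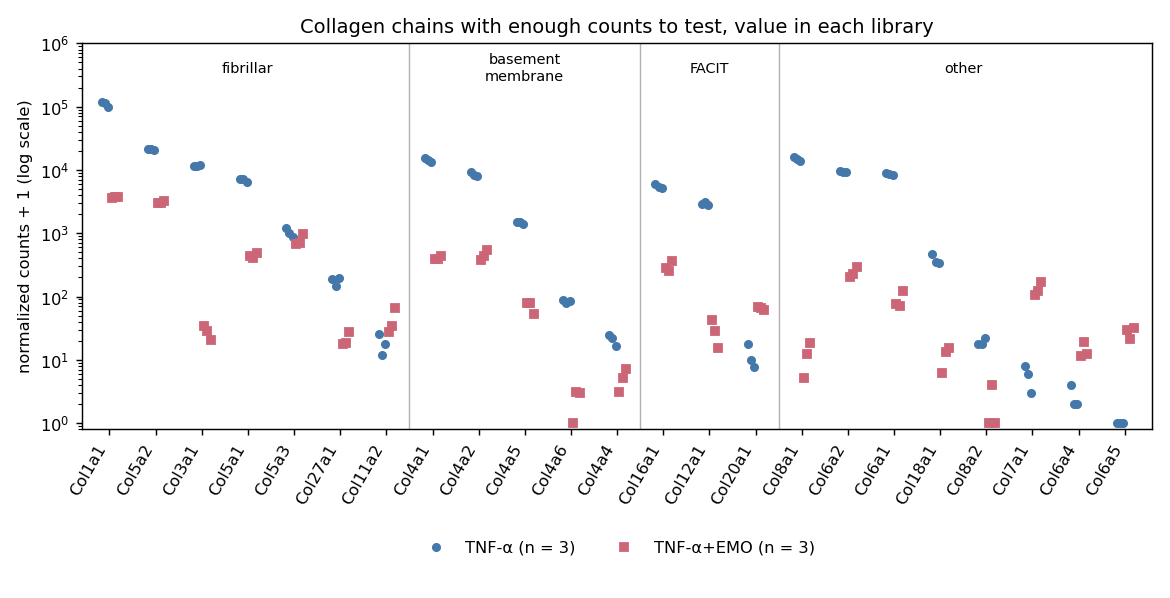
Normalized counts plus 1 (log scale) of the 23 tested chains, each point 1 library, with TNF-α as circles (n = 3) and TNF-α+EMO as squares (n = 3), grouped by class and ordered by the TNF-α mean. Among the abundant chains the groups lie far apart except for Col5a3, while the 5 chains that were higher with EMO all stand at the low end.

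Of the 14 chains with a mean of at least 100 counts over the 6 libraries, 13 were lower, 1 not called and 0 higher. Their median was −5.03 on the log2 scale. Of all 10277 tested genes with such a mean, 2488 (24.2%) were called lower and 1955 higher. Among the other 28 chains, 9 were tested, of which 4 were lower and 5 higher. All of these 9 but Col27a1 and Col11a2 passed the count filter only through the group in which they were high, so that they had to differ, and a mean over both groups itself moves with the change. The split by level is therefore a description. As a share of each library's counts, the 42 chains took 1.392%, 1.332% and 1.239% with TNF-α and 0.05405%, 0.05477% and 0.05863% with EMO, which is 1.32% ± 0.0771 against 0.0558% ± 0.00246 (SD, n = 3 each) and 23.7-fold lower. Library totals ran from 16813322 to 17794455 counts, so depth differed little between groups.

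**Figure D2:**
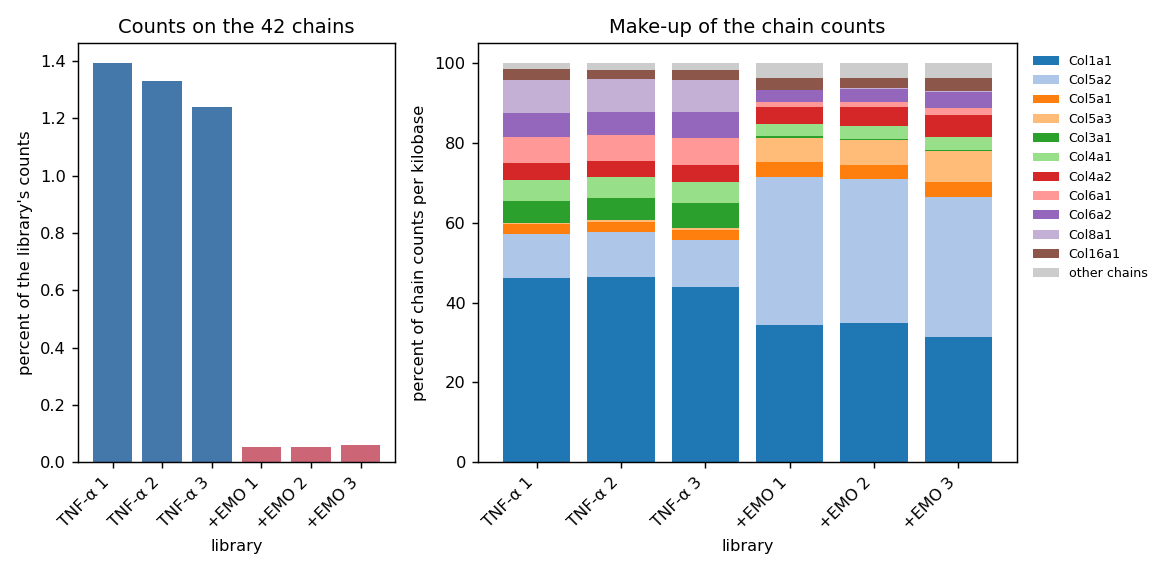
Left, percent of each library's counts that fell on the 42 chains, and right, the make-up of the chain counts per kilobase of gene length in each library, as percent. The share dropped from over 1.2% to under 0.06%, and within it Col5a2 (light blue) and Col5a3 (light orange) took a larger part with EMO while Col8a1 and Col3a1 nearly vanished.

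Tested chains are long genes, and longer genes had lower fold changes throughout these libraries. The deposited length of the tested chains ran from 3082 to 10929 bases (median 5568), against a median of 2248 for all tested genes. Across all 13614 tested genes the Spearman correlation of log2 fold change with length was −0.225, a description only. The median log2 fold change was 0.45 for genes of up to 1000 bases, −0.58 for those over 4000 and up to 8000 bases, where 18 chains lay, and −1.10 above 8000 bases, where 3 lay. Among the 2673 tested genes of at least 4000 bases, 40.7% were called lower. Measured relative to genes of like length, the median of the tested chains was −3.56. The p-values were left as they were, and with them the fold threshold gave 17 lower and 5 higher chains.

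The fibrillar chains were the most abundant class and fell in 5 of 7 tested members. Their median log2 fold change was −3.11, and their share of all counts went from 0.920% to 0.0453%, 20.3-fold lower. Col1a1 (ENSRNOG00000003897; Rnor_6.0 chr10:82745801-82762789, plus strand), the α1 chain of type I collagen, counted 121730, 116899 and 102801 reads with TNF-α and 3554, 3672 and 3637 with EMO. Every EMO library was far below every TNF-α library. The normalized level was 111181 ± 9932 against 3709 ± 46.1 (SD, n = 3 each). On the log2 scale this is a fold change of −4.91 (SE 0.08, adjusted p = 2.8e-12). Per kilobase, Col1a1 ranked 37 of all genes with TNF-α and 2907 with EMO.

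Col3a1 (chr9:52023295-52059217, plus strand), whose homotrimer forms the thin fibrils of elastic tissues, had the largest fold of the class. It counted 11788, 11700 and 12249 with TNF-α and 32, 27 and 19 with EMO, a log2 fold change of −8.76 (SE 0.12, adjusted p = 1.5e-12), or 434.7-fold lower. Its rank per kilobase went from 549 to 13200. Col5a1 (chr3:6430201-6578882) and Col5a2 (chr9:52092511-52238564, minus strand) encode the α1 and α2 chains of type V collagen, which starts type I fibrils and limits their width. Col5a1 counted 7302, 7324 and 6506 with TNF-α and 427, 403 and 475 with EMO, a log2 fold change of −3.95 (SE 0.08, adjusted p = 1.7e-11). Col5a2 counted 22084, 21757 and 21224 with TNF-α and 2939, 2949 and 3140 with EMO, which is −2.78 (SE 0.06, adjusted p = 1.4e-11) and 6.87-fold lower. Both fell in every library, and among the fibrillar chains called lower the log2 fold change of Col5a2 was the nearest to 0.

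Col5a3 (chr8:21786324-21831668, minus strand), the α3 chain of type V collagen, was the only tested chain not called. It counted 1229, 1033 and 883 with TNF-α and 649, 688 and 940 with EMO, so that the third EMO library lay among the TNF-α libraries. The log2 fold change was −0.40 (SE 0.16, adjusted p = 0.0499). Its adjusted p rose above 0.05 in 6 alternatives, among them the fit without TNF-α replicate 1 (0.155) or without TNF-α+EMO replicate 1 (0.166), and relative to genes of like length its sign turned (0.30). Col27a1, a chain of cartilage fibrils, counted 190, 147 and 198 against 16, 17 and 26, a log2 fold change of −3.11 (SE 0.24, adjusted p = 4.2e-07). Col11a2, which encodes a chain of the type XI collagen of cartilage and was named after its values were seen, was the fibrillar chain called higher, with 25, 11 and 17 counts against 26, 33 and 64. Its log2 fold change was 1.27 (SE 0.42, adjusted p = 0.0156), and the call was lost without TNF-α replicate 2 (adjusted p = 0.0633) or 3 (0.0533) and without TNF-α+EMO replicate 3 (0.0673). The others were near 0: Col2a1, the main cartilage collagen, reached at most 5 counts, Col11a1 at most 5 and Col24a1 at most 2.

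Type I collagen also needs the α2 chain, which the rule missed because the table lists it as NEWGENE_621351 (ENSRNOG00000011292, described as collagen type I alpha 2; chr4:31534225-31569151, plus strand). It counted 28370, 29607 and 19379 with TNF-α and 4561, 4246 and 4258 with EMO, a log2 fold change of −2.50 (SE 0.17, adjusted p = 1e-05). A second row of the same name had 16, 28 and 29 counts against 1, 10 and 0, and reads could have been split between these copies. The α1 chain thus changed more than the α2 chain. The ratio of Col1a1 to Col1a2, per kilobase, was 3.30, 3.03 and 4.08 with TNF-α and 0.599, 0.664 and 0.656 with EMO, and it went from 3.47 ± 0.542 to 0.640 ± 0.0358, 5.38-fold lower. In the assembled type I molecule α1 chains outnumber α2 chains, and with EMO the order of their transcripts was the opposite. Col6a3, listed under AABR07068316.1 as a processed transcript, counted 508, 507 and 405 against 0, 1 and 3, and the ratio of the summed counts was 338 (95% exact counting interval 132 to 1244). Such intervals cover counting error only. With these chains added, the collagen share of counts was 1.48% against 0.0808%, 18.3-fold lower.

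All 5 tested basement membrane chains fell, with a median log2 fold change of −4.38 and a share of counts 28.4-fold lower (0.149% against 0.00525%). Among these 5, Col4a4 and Col4a6 passed the count filter only through the TNF-α libraries, so that they had to differ. Col4a1 (chr16:83522162-83632153, plus strand) and Col4a2 (chr16:83387364-83438561, minus strand) make the classical type IV network found in nearly every basement membrane. Col4a1 counted 15931, 14678 and 13796 with TNF-α and 372, 383 and 432 with EMO (log2 fold change −5.16, SE 0.09, adjusted p = 4.5e-12). Col4a2 counted 9480, 8651 and 8291 against 366, 427 and 537 (−4.24, SE 0.13, adjusted p = 1.4e-09). Only a short stretch lies between their starts in GRCr8. In Rnor_6.0, to which the reads were aligned, the annotated starts (83522162 and 83438561) lie much farther apart, so the counted gene models differ from those of GRCr8. The transcripts of Col4a1 and Col4a2 did not keep a constant ratio. Col4a1 over Col4a2, per kilobase, was 1.26 ± 0.0123 with TNF-α and 0.680 ± 0.0797 with EMO, with no overlap between groups.

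Col4a5 and Col4a6, the head-to-head pair on chromosome X, encode chains of specialised basement membranes. Col4a5 counted 1506, 1524 and 1445 against 77, 77 and 51 (log2 fold change −4.38, SE 0.14, adjusted p = 2.0e-10). Col4a6 had 90, 81 and 87 counts against 0, 2 and 2, a ratio of the summed counts of 61.5 (interval 23.7 to 227; adjusted p = 4.9e-07). Both members of this pair were therefore low with EMO. Col4a4, a chain of kidney and eye basement membranes, had 24, 22 and 16 counts against 2, 4 and 6 (−2.27, SE 0.46, adjusted p = 8.3e-04), while its neighbour Col4a3 stayed at or below 7 counts in every library and was not tested.

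FACIT chains fell in 2 of 3 tested members, and their share of counts was 22.5-fold lower (0.0512% against 0.00227%). Col12a1 (chr8:87040799-87158368, minus strand), which links fibrils in dense connective tissue under load, counted 2900, 3157 and 2882 with TNF-α and 40, 27 and 14 with EMO. Its log2 fold change was −6.71 (SE 0.20, adjusted p = 1.8e-09), or 104.7-fold lower. Col16a1 (chr5:148257642-148311645, plus strand), a minor fibril-associated chain, counted 6203, 5447 and 5307 against 274, 249 and 362 (−4.19, SE 0.13, adjusted p = 1.7e-09). Col20a1, named after its values were seen, went the other way, with 17, 9 and 7 counts against 66, 64 and 60 (log2 fold change 2.58, SE 0.34, adjusted p = 3.1e-05). It remained a low transcript in both groups and passed the count filter only through the EMO libraries, which favours a call of higher. Of the 6 untested members, Col14a1 had 17, 5 and 12 counts with TNF-α and 0, 1 and 0 with EMO, Col9a2 reached at most 13, Col22a1 at most 6, Col9a3 at most 3 and Col19a1 at most 1.

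**Figure D3:**
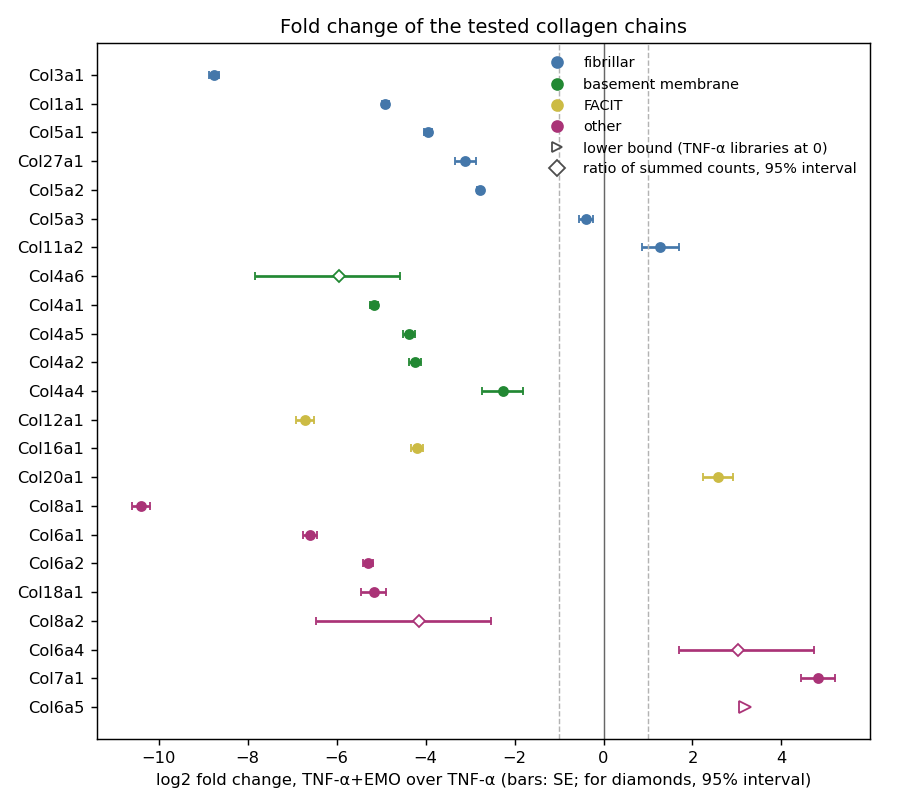
Log2 fold change (TNF-α+EMO over TNF-α) of the 23 tested chains by class, with bars for the standard error, dashed lines at −1 and 1, open diamonds for the ratio of summed counts with its 95% counting interval where one group had 1 to 3 counts in a library at most, and an open triangle for a lower bound. The 17 chains to the left span every class, and the 5 to the right are Col11a2, Col20a1, Col6a4, Col7a1 and Col6a5.

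The other chains had the largest drop as a class, their share of counts going from 0.201% to 0.00294% (68.4-fold lower). Of 8 tested members, 5 were lower and 3 higher. Col8a1 (chr11:44877859-45007891, plus strand), a short network-forming chain of vessel walls and the cornea, was the most abundant of them per kilobase with TNF-α. It counted 16529, 15280 and 14083 with TNF-α and 4, 11 and 17 with EMO, which is the widest gap of any tested chain. The log2 fold change was −10.40 (SE 0.20, adjusted p = 7.3e-11), and its rank per kilobase went from 346 to 14307. Col8a2, its partner chain, was low already with TNF-α (17, 17 and 22 counts) and had 0, 3 and 0 with EMO. The ratio of its summed counts was 17.8 (interval 5.79 to 88.9, edgeR adjusted p = 4.5e-04). Col8a2 passed the count filter only through the TNF-α libraries, which favours a call of lower.

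Type VI collagen forms beaded filaments around cells, and its α1 and α2 chains lie near each other on chromosome 20. Col6a1 (chr20:12658065-12675561) counted 8974, 8730 and 8497 with TNF-α and 72, 68 and 118 with EMO (log2 fold change −6.60, SE 0.16, adjusted p = 4.3e-10). Col6a2 (chr20:12773427-12801180) counted 9819, 9349 and 9650 against 196, 219 and 283 (−5.30, SE 0.12, adjusted p = 3.0e-11). Their ratio per kilobase was 1.09 ± 0.0323 with TNF-α, near to the equal parts in which they enter the protein, and 0.438 ± 0.0639 with EMO. Col18a1 (chr20:12225202-12332858), the multiplexin whose end fragment is endostatin, counted 478, 358 and 346 against 5, 12 and 14 (−5.17, SE 0.28, adjusted p = 1.9e-08). Counting Col18a1 with the basement membrane chains, where it also resides, would put the median of that class at −4.77.

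The 3 higher members were low transcripts and are named because they are few. They passed the count filter only through the EMO libraries, which favours a call of higher. Col7a1 (chr8:117694605-117726844, plus strand), the anchoring fibril chain that ties epithelium to the matrix below, had 7, 5 and 2 counts with TNF-α and 102, 119 and 167 with EMO. Its log2 fold change was 4.82 (SE 0.38, adjusted p = 3.9e-07). Col6a5 had 28, 20 and 30 counts with EMO and none with TNF-α. With each TNF-α library set at a floor of 3 counts, it was at least 9.09-fold higher (adjusted p = 2.0e-05). Col6a4, its neighbour on chromosome 8 and likewise a chain that can take the place of Col6a3 in type VI collagen, had 3, 1 and 1 counts against 10, 18 and 11, a ratio of 8.18 (interval 3.22 to 26.6; adjusted p = 9.4e-04). The untested members reached at most 12 counts for Col17a1, 11 for Col6a6, 5 for Col10a1, 4 for Col25a1 and Col28a1, and 1 for Col13a1 and Col15a1. Col10a1 lies across Nt5dc1, which had up to 531 counts, and strand was not stated for the counting, so its reads are uncertain.

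Because the chains fell by unequal factors, the make-up of the transcripts of the 42 chains changed, Col1a2 and Col6a3 not being counted among them. Per kilobase, Col1a1 made up 45.5% ± 1.36 of the chain counts with TNF-α and 33.6% ± 1.89 with EMO, whereas Col5a2 went from 11.3% ± 0.455 to 36.2% ± 0.937 and became the largest part of these 42. Col1a2, outside the rule, was at 997.1 normalized counts per kilobase with EMO, above Col5a2 at 687.7 and Col1a1 at 636.8. Col5a3 went from 0.402% to 6.71%. Col8a1 went from 8.23% to 0.130%, Col3a1 from 5.85% to 0.298% and Col6a1 from 6.62% to 1.49%. By class, fibrillar chains went from 65.7% to 80.9% of the sum, basement membrane chains went from 9.99% to 8.68%, FACIT chains from 3.19% to 4.14%, and the others from 21.1% to 6.24%. These are parts of a total that itself was much smaller, so that a larger part is no rise in level.

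**Figure D4:**
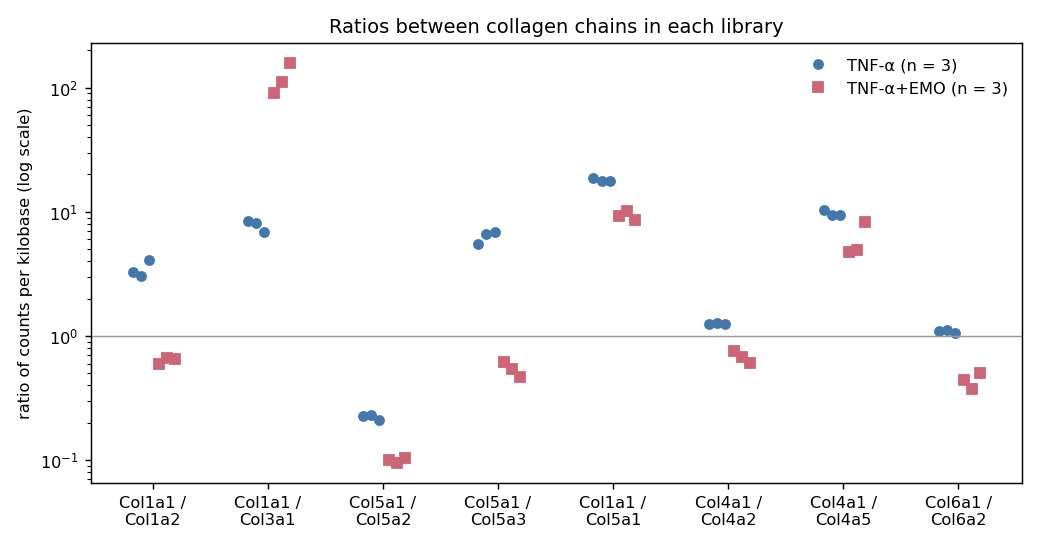
Ratio of counts per kilobase between chains of the same class (log scale), each point 1 library. TNF-α is shown as circles and TNF-α+EMO as squares (n = 3 each), with a line at 1. In none of the 8 pairs do the groups overlap, which also held for the levels of most single tested genes. The ratios of Col1a1 to Col1a2, Col5a1 to Col5a3, Col4a1 to Col4a2 and Col6a1 to Col6a2 cross from above 1 to below it.

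In all 8 ratios formed, the EMO libraries lay wholly on one side of the TNF-α libraries. Such separation was common, since 42.5% of all tested genes lay wholly lower with EMO and 40.3% wholly higher. No such share was formed for ratios of other genes. With 3 libraries in each group the exact two-sided permutation test cannot give less than p = 0.1, the value each ratio had, before or after adjustment over the 8. Col1a1 over Col3a1 was 7.83 ± 0.845 with TNF-α and 120.0 ± 33.6 with EMO, so that the type III transcript fell by the larger factor. Col5a1 over Col5a2 went from 0.224 ± 0.011 to 0.0995 ± 0.00506, Col5a1 over Col5a3 from 6.32 ± 0.703 to 0.542 ± 0.071. Within type V collagen the α1 chain, which every known form of the molecule contains, thus had a larger fold change than α2 or α3. Col1a1 over Col5a1 was 18.6, 17.8 and 17.7 with TNF-α and 9.30, 10.2 and 8.55 with EMO, and Col4a1 over Col4a5 was 10.4, 9.48 and 9.40 against 4.76, 4.90 and 8.34, so that 1 EMO library came close to the TNF-α libraries in the latter.

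A chain becomes matrix only after it is hydroxylated, folded, trimmed and cross-linked, and 80 genes of these steps and of collagen binding, breakdown and control were examined. Of them, 77 were found and 68 were tested. The calls were 45 lower, 4 higher and 19 not called, around a median of −1.86 on the log2 scale. The 27.8% of all tested genes called lower and the 19.5% called higher stand behind the count of each list. Listed genes with few counts, such as Tll1, Ctsk and Scx, passed the count filter only through the TNF-α libraries, which favours a call of lower. Crtap, Mia3 and Tnxb were not analysed here.

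Enzymes and chaperones that fold and modify the chains in the endoplasmic reticulum had the median nearest to 0 of the lists. Of 16 tested, 5 were lower (31.2%, a share near that of all tested genes), 1 was higher (Tmem38b) and 10 were not called, with a median of −0.81. Serpinh1, which encodes HSP47, the collagen-specific chaperone, was at 17299 ± 695 normalized counts with TNF-α and 17855 ± 2250 with EMO (log2 fold change 0.05, SE 0.08, adjusted p = 0.627), while its client Col1a1 was 30.0-fold lower. Of the 5 lower genes, Plod1, P3h1 and P3h4 had log2 fold changes of −1.03, −1.10 and −1.05. The other 2 were P4ha3, a prolyl hydroxylase subunit (1917 ± 55.1 against 93.2 ± 11.2; −4.36, SE 0.10, adjusted p = 2.4e-11), and Plod2, the lysyl hydroxylase of the telopeptides (7557 ± 253 against 372.7 ± 48.1; −4.34, SE 0.09, adjusted p = 1.7e-11). P4hb, the β subunit of prolyl hydroxylase, was not called (log2 fold change 0.10). The α subunit genes P4ha1 (0.79) and P4ha2 (−0.80) were not called either, nor was the lysyl hydroxylase gene Plod3 (0.71).

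Genes that act on collagen outside the cell were lower in larger numbers. Of 11 tested genes for propeptide cleavage and cross-linking, 10 were lower and 1 (Loxl4) higher, with a median of −3.55. Lox, the lysyl oxidase that cross-links fibrils, was at 38913 ± 779 against 96.0 ± 16.0 (−8.66, SE 0.10, adjusted p = 8.1e-13). Adamts2, which removes the amino propeptide of fibrillar chains, was at 1566 ± 53.5 against 8.19 ± 4.45 (−7.56, SE 0.18, adjusted p = 3.2e-11). Among the proteins that bind fibrils, 8 of 9 were lower, and the median of the 9 was −7.59 (−6.30 with Lum at its bound). Dcn, which encodes decorin, was higher, with 0, 4 and 1 counts against 33, 24 and 26. It passed the count filter only through the EMO libraries. Thbs2, a thrombospondin, was at 24761 ± 2120 against 15.7 ± 2.53 (−10.61, SE 0.13, adjusted p = 8.1e-13), and Lum, the fibril-binding proteoglycan lumican, was at 241.6 ± 13.4 and had no count in the EMO libraries, which against the same floor makes it at least 78.6-fold lower (adjusted p = 1.1e-08).

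Receptors for collagen were lower in 6 of 8 tested genes, with a median of −3.77. Mrc2, the endocytic receptor that takes up collagen fragments, was at 14078 ± 433 against 120.2 ± 15.1 (−6.87, SE 0.09, adjusted p = 1.5e-12), and Itga1, the α1 integrin subunit that binds type IV collagen, at 2102 ± 84.7 against 82.3 ± 13.4 (−4.67, SE 0.11, adjusted p = 3.3e-11). Ddr2, a receptor kinase activated by fibrillar collagen, fell less (4247 ± 259 against 1415 ± 162; −1.59, SE 0.09, adjusted p = 2.2e-08), and Itgb1, the shared β1 subunit, was not called (−0.31). Of the 6 tested proteinases that cleave collagen, 3 were lower, 1 (Mmp13, an interstitial collagenase) was higher and 2 were not called, with a median of −1.56. Mmp9, a gelatinase, was at 3555 ± 286 against 20.8 ± 1.59 (−7.41, SE 0.11, adjusted p = 2.5e-12), and Mmp14, the membrane-bound collagenase of synovial fibroblasts, at 11266 ± 700 against 1618 ± 73.5 (−2.80, SE 0.07, adjusted p = 4.7e-11).

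Known inducers and regulators of collagen genes were lower in 13 of 18 tested members and higher in 0, with a median of −1.94. Ccn2, the matricellular growth factor induced by TGF-β, was at 11149 ± 522 against 65.2 ± 23.5 (−7.42, SE 0.18, adjusted p = 7.1e-10). Sox9, the transcription factor of cartilage collagen genes and also the tested chondrocyte marker, was at 487.5 ± 46.0 against 4.10 ± 2.72 (−6.85, SE 0.27, adjusted p = 1.5e-09).

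**Figure D5:**
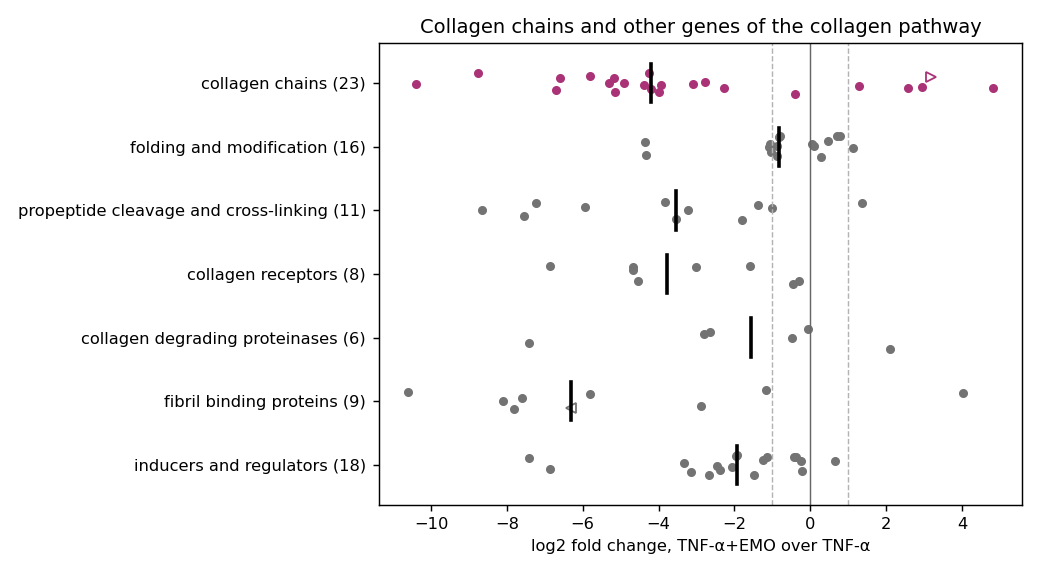
Log2 fold change (TNF-α+EMO over TNF-α) of the 23 tested chains and of the tested genes of 6 other lists, with the number tested in brackets, a thick line at each median, dashed lines at −1 and 1, and open triangles at the bound of genes with no count in one group. Folding and modification genes gather near 0, with P4ha3 and Plod2 apart at about −4.3, while the chains and the fibril binding proteins extend below −10.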

How the data were processed

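The authors sequenced poly(A)-selected paired-end libraries of 6 rat RA-FLS samples. Per the labels, reads were checked with FastQC, trimmed with Trimmomatic and aligned with HISAT2 to Rnor_6.0. The counting program and its strand setting are not given in the sources used here. Raw read counts per gene and gene lengths were used as deposited. The FPKM values and the authors' own comparison (group means, log2 fold changes and p-values) were not used.

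A gene was tested if 3 or more libraries held 10 or more of its counts. The test was edgeR 4.0.16 (quasi-likelihood, TMM, robust; R 4.3.3) with Benjamini-Hochberg adjustment over 13614 genes. The SE given with an edgeR fold change is the absolute log2 fold change divided by the square root of its F statistic. Normalized counts are scaled by TMM to the mean library. Replicates varied with a biological coefficient of variation of 0.121 over all genes. On simulated counts of 13400 genes for this comparison, 99% of changes of 1.5 and 100% of changes of 3 (log2) were recovered, with 1 false call. The simulation changed 200 genes, with rises and falls balanced, whereas here 27.8% of tested genes were called lower and 19.5% higher. It therefore does not test the scaling at such numbers of changes, nor genes near 0 counts.

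Members and lists were chosen with earlier results of these data known. Chains with a mean of at least 100 counts were named, lower ones where a pair or class needed them, and from each list the 2 genes with the largest change above that mean, plus Serpinh1, Lox, Ddr2 and Mmp14. Further genes named were chosen after their values were seen. Alternatives were DESeq2 1.42.0, other scalings, filters and thresholds, a replicate block, each library left out, and gene length. The result of 1 marker list is not reported here.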

Additional observations from a re-analysis of the deposited data

How the results depend on the processing

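The count of chains lower with EMO was 17 in the main analysis and ranged from 15 to 20 under the alternatives, and the count higher went from 5 to 2 with the stricter filter of 50 counts, which tests fewer genes. With no filter on low counts 20 chains were lower and 6 higher, and the median log2 fold change was −2.78 for all chains, −1.94 for FACIT and −1.85 for other chains, since chains near 0 then enter. With the stricter filter it was −4.66 for all, −3.55 for fibrillar and −4.79 for basement membrane chains. Relative to genes of like length, an alternative chosen after seeing the data that kept the p-values as they were, it was −3.56 for all chains, −2.38 for fibrillar, −3.80 for basement membrane and −3.56 for FACIT chains, and Col5a3 reversed to 0.302. Counting multiplexins as basement membrane chains gave −4.77. Of the other pathway genes, 9 were higher with no fold threshold and 2 beyond a log2 fold change of 2. Leaving out 1 library at a time, the count of higher chains was 4 to 5 and the median of all chains −4.24 to −4.12.

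Library totals as the only scaling moved the median of all tested genes to −0.13 and turned no chain's direction. Replicate numbers did not pair the libraries (correlations of deviations 0.0199, −0.00382 and 0.0622). With the replicate block 17 chains were lower and 5 higher, the median of all chains was −4.20, and Col5a3 lost its adjusted p (0.102), as it did with no filter (0.0876) and without 4 of the 6 libraries in turn (0.0887 to 0.166). Depth limits the chains with too few counts for the main filter, which were tested only in the fit with no filter.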

Other observations

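Some proteins carry a short collagen-like helix without being collagen chains, among them the emilins, the C1q/TNF-related proteins, the collectins and class A scavenger receptors. A list of 39 such genes was drawn up after the chains' values had been seen, so it is no independent support. Of these, 37 were found and 12 tested. With EMO 9 were lower and 1 was higher, beside 27.8% and 19.5% of all tested genes, and 2 (C1qtnf1 and Colq) were not called. The median log2 fold change was −1.96. Some of them, such as Colec12, Scara5 and Colec11, passed the count filter only through the group in which they were high. Emilin1, a glycoprotein of elastic fibres, was at 11532 ± 331 normalized counts with TNF-α and 520.3 ± 100.0 with EMO (SD, n = 3 each; log2 fold change −4.47, SE 0.12, edgeR adjusted p = 4.6e-10). Scara3, a scavenger receptor gene, was at 1276 ± 20.4 against 49.9 ± 3.73 (−4.67, SE 0.10, edgeR adjusted p = 1.5e-11). C1qtnf5 and C1qtnf6 fell by 2.86 and 1.76 on the log2 scale. Colec11, a collectin gene, was called higher with 2, 1 and 0 counts against 12, 10 and 18.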
